A study of Saccharomyces cerevisiae with 6 samples.

Results

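The regions described here are 20-bp bins inside the 3′ parts of genes, nearer to the 3′ than to the 5′ end, on the chromosome arms of budding yeast, in which the cleavage made by Rec8 fused to micrococcal nuclease differed between WT and ctf19-9A cells in meiotic prophase I. A bin was taken when the authors listed it as changed, when its middle lay in exactly 1 annotated gene and in the 3′ part of that gene, and when it was more than 50 kb from the centromere, more than 20 kb from a chromosome end and more than 500 bp from a tRNA gene. Chromosomes I, III and VI were not used. The rule took 2462 of the 14224 listed bins, in 415 genes on 13 chromosomes. These bins cover 49.2 kb.

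Rec8 is the meiotic kleisin, the subunit that closes the ring-shaped cohesin complex around sister chromatids and carries the chromosome axis of meiotic prophase. Cohesin is loaded at many sites, above all near centromeres, and is known to move along yeast chromosomes with transcription and to accumulate where genes end, mainly between genes that are transcribed towards each other. Ctf19, of the inner kinetochore, recruits the cohesin loader to centromeres through its phosphorylated N-terminal part, and ctf19-9A is an allele of its gene that the labels do not describe further. The 3′ parts of genes lie beside the places where cohesin is known to collect.

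ChEC-seq, in which a nuclease fused to the protein cuts nearby DNA once calcium is added and the cut fragments are sequenced, was done on 3 WT and 3 ctf19-9A diploid cultures, each from a different zygote. All 6 carried Rec8-3xFLAG-MNase and lacked NDT80, so that cells stop in prophase I, and their background is labelled X and Y. Cultures were in YP acetate for about 16 h, in 1% potassium acetate for 4.5 h and in 2 mM CaCl2 for 5 min. The only values used here are those of the authors' comparison of the genotypes, which give each listed bin a log2 fold change (plain and shrunken), a false discovery rate and a p-value. No value of a single culture is given there, so the depth per culture is unknown, no spread between replicates can be shown, and no test between groups of bins was made.

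The sources do not say which genotype is the numerator of the log2 ratio. It is likely ctf19-9A, with WT below, on the basis that Ctf19 recruits the loader to centromeres and that 98.9% of the 3938 listed bins within 10 kb of these 13 centromeres are negative. A positive value then means more Rec8 cleavage in ctf19-9A, and the opposite if the ratio runs the other way. The authors called a bin at a false discovery rate under 0.05. If their adjustment was that of Benjamini and Hochberg, 154927 bins entered it, of which 9.18% were listed and 5.58% were listed with a positive sign. Which bins these were is unknown, so counts are set here against sequence, cut into tiles of the same 20 bp. Of the 459331 tiles on the arms, 1.47% were listed, all with a positive sign. The rule fixes that sign, since it leaves out the only stretch of these arms with negative bins, on the right arm of XV (566681 to 594800).

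Rec8 cleavage in the 3′ parts changed by a small amount. The median log2 fold change of the 2462 bins was 0.53, a ratio of 1.44, with quartiles of 0.48 and 0.57 and a range of 0.38 to 1.01. The standard error (SE) implied by each p-value had a median of 0.17 and a range of 0.13 to 0.23. Only 58 bins, in 27 genes, reached 0.7 or more. A bin with a larger SE needs a larger change to be listed, and across the 2462 bins the log2 fold change rose with the SE (Pearson's r 0.66, Spearman's rho 0.66, a description over bins that share libraries and neighbours). The values therefore describe listed bins and not the average change of all 3′ sequence. At a false discovery rate under 0.01, 294 bins were left, 11.9% of those listed here against 17.8% of all listed arm bins, or 0.169% of 3′ tiles against 0.262% of all arm tiles. The median hardly varied between chromosomes, from 0.50 on XIV to 0.54 on XII, with a mean of 0.52 (SD 0.011, n = 13 chromosomes).

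Taken as a whole, the 3′ parts were listed about as often as arm sequence of any kind. Listed bins made up 1.42% of their 173822 tiles, next to the 1.47% of all arm tiles, so the total count says nothing particular of them. What differed was the rest of the gene and the sequence beyond it. In 5′ parts 0.210% of 172143 tiles were listed, or 362 bins, a share 6.74 times smaller (3.81 times when each gene is counted once), and on 13 of 13 chromosomes the 3′ share was the larger one, by 2.38 to 15.5 times. Tandem intergenic sequence was listed at 2.86% and convergent intergenic sequence at 11.4%, both above the 3′ parts on 13 of 13 chromosomes. Divergent intergenic sequence, at 1.32%, lay below the 3′ parts on 8 chromosomes and above them on the others. By chromosome, the listed share of 3′ parts averaged 1.48% (SD 0.47, n = 13), from 0.746% on XIV to 2.22% on IX. How many tiles of each class were tested is unknown, so a larger share cannot be told apart from more tested tiles.

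**Figure D1:**
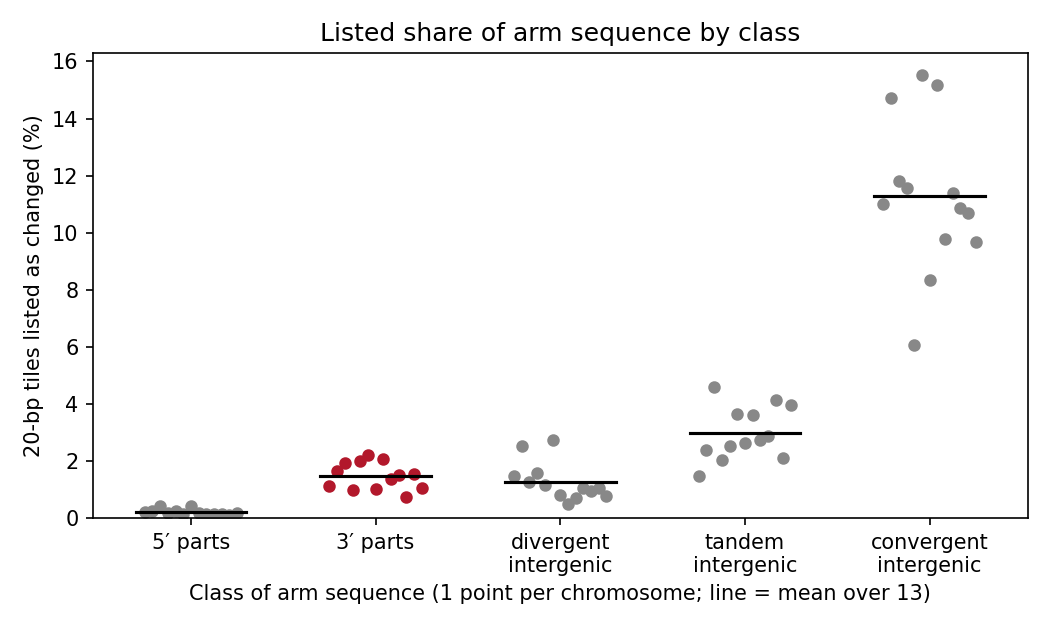
Share of 20-bp tiles of arm sequence listed by the authors (%), by class, with 1 point for each of 13 chromosomes and a line at their mean. The 3′ parts (red) range from 0.746% to 2.22% and lie above the 5′ parts and below both tandem and convergent intergenic sequence on every chromosome shown.

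Among listed bins, the median change in 3′ parts was like that in convergent intergenic sequence and smaller than in tandem and divergent sequence. The median log2 fold change was 0.53 in convergent, 0.60 in tandem and 0.64 in divergent intergenic bins, and 0.52 in 5′ parts. Per chromosome, the 3′ median lay below the tandem one on 13 of 13 chromosomes, with an average difference of -0.0839 (SD 0.0297), and below the divergent one on 13 of 13, with one of -0.108 (SD 0.0272). It differed from the convergent one by -0.012 on average (SD 0.022), with the 3′ median the higher on 5 of 13. The median SE was 0.16 in convergent, 0.19 in tandem and 0.20 in divergent bins, and its part in these differences was not tested. Shrunken medians lay closer together, at 0.403 in 3′ parts, 0.412 in convergent, 0.436 in tandem and 0.444 in divergent bins. All are values of listed bins and not of each class as a whole.

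The 3′ parts divided by the direction of the next gene. Of the 2462 bins, 2317 (94.1%) lay in genes whose downstream neighbour is convergent, that is, on the other strand and ending towards them, although such genes hold only 51.7% of the tiles. Listed bins made up 2.58% of tiles in genes with a convergent neighbour and 0.173% in genes with a tandem one, a ratio of 14.9. The share was larger with a convergent neighbour on 13 of 13 chromosomes, from 1.47% on XIV to 4.26% on XI, and with a tandem neighbour it was 0 on X and XII and reached 0.805% on VIII. By gene, 384 of 2434 genes with a convergent neighbour (15.8%) held a listed bin in the 3′ part, against 31 of 2289 with a tandem one (1.35%). Among listed bins, the median log2 fold change was 0.52 for convergent and 0.55 for tandem genes, with 4 bins per gene in the median of both. All these bins passed the same call, so the medians do not compare the change over all 3′ sequence. Which tiles were tested is unknown, so a larger listed share cannot be told apart from more tested tiles or more reads.

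**Figure D2:**
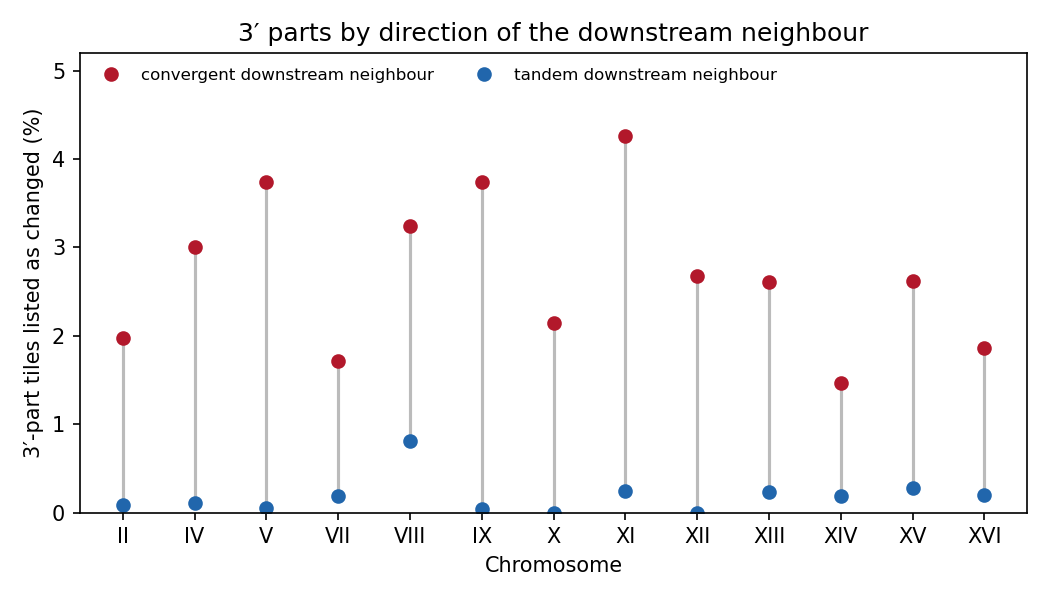
Share of 3′-part tiles listed by the authors (%), for each of 13 chromosomes, in genes with a convergent (red) and a tandem (blue) downstream neighbour. The convergent value is the higher on every chromosome, at 1.47% to 4.26%, and the tandem value is 0 on X and XII and highest on VIII, at 0.805%.

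Some of the 31 tandem genes end beside an RNA gene. For 7 of them, with 64 of the 145 bins, the next annotated gene is not protein-coding and the next protein-coding gene is convergent. How many of all 2289 tandem genes are of this kind was not counted, so 7 of 31 cannot be called many or few. Among them LAM1, for a sterol transporter at membrane contact sites, held 21 bins before the snoRNA gene SNR71, and RKR1, for a ubiquitin ligase, held 15 before SNR86. With protein-coding genes alone, 96.8% of bins had a convergent neighbour, and the share of tiles with one was not computed in that setting. Of genes followed by a tandem protein-coding gene, HRR25, for a casein kinase that acts at meiotic kinetochores, held 9 bins before TPK2, and NPR1, for a kinase of nutrient transport, held 8. Only 5 of the 31 tandem genes held bins more than 200 bp from the gene end, 39 bins in all.

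Listed bins gathered at the end of the gene. The last 10% of the gene length held 1248 of the 2462 bins (50.7%), and the 10% just past the middle held 136. In bp, 813 bins (33.0%) lay within 100 bp of the gene end, which is the stop codon of protein-coding genes, where 13.2% of tiles lie. The listed share fell from 3.55% within 100 bp to 1.91% at 100 to 200 bp, 1.14% at 400 to 500 bp, 0.789% at 750 to 1000 bp and 0.0233% beyond 1500 bp. The median distance was 200.5 bp, against 427.5 bp for all 3′ tiles, and 80.2% of bins lay within 500 bp. Beyond 1000 bp lay 64 bins, in 19 of the 1037 genes with such sequence.

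**Figure D3:**
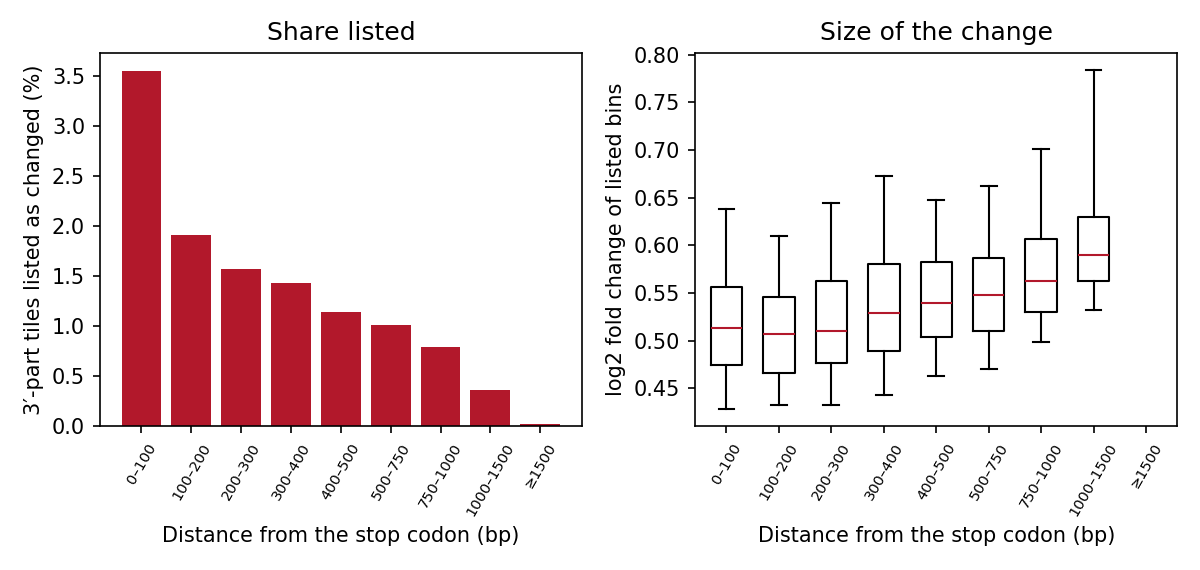
Left, share of 3′-part tiles listed (%), by distance from the stop codon or gene end in bp. Right, log2 fold change of the listed bins in the same classes (box, quartiles; red line, median; whiskers, 5th to 95th percentile; classes with under 20 bins not drawn). The share falls from 3.55% to 0.0233%, and the median of listed bins goes from 0.51 in the first class to 0.59 at 1000 to 1500 bp.

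Farther from the gene end, fewer bins were listed and those listed had larger values. The median log2 fold change was 0.51 within 100 bp, 0.54 at 400 to 500 bp and 0.59 at 1000 to 1500 bp. The median SE rose over the same classes, from 0.16 to 0.17 and 0.19. Bins with a smaller SE can be listed at a smaller change, and without values per culture a larger share near the end cannot be told apart from more reads there.

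The 3′ parts formed the upstream shoulder of a peak whose top lay past the gene end. In genes with a convergent neighbour, the listed share of tiles rose from 1.32% at 900 to 1000 bp inside the gene to 6.32% in its last 100 bp. It went on to 9.53% in the first 100 bp downstream and 10.9% in the next 100 bp, and was back at 2.57% at 900 to 1000 bp downstream, where the facing gene lies. With a tandem neighbour the share inside the gene was 0.139% or less from 1000 to 200 bp before the end, then 0.301% and 0.658% in the last 2 classes. It reached 3.73% at 100 to 200 bp downstream. The position of the top was the same in both, in the second 100 bp past the end. The extension into the gene was not: at 200 to 300 bp before the end the share was 2.98% with a convergent and 0.0829% with a tandem neighbour.

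**Figure D4:**
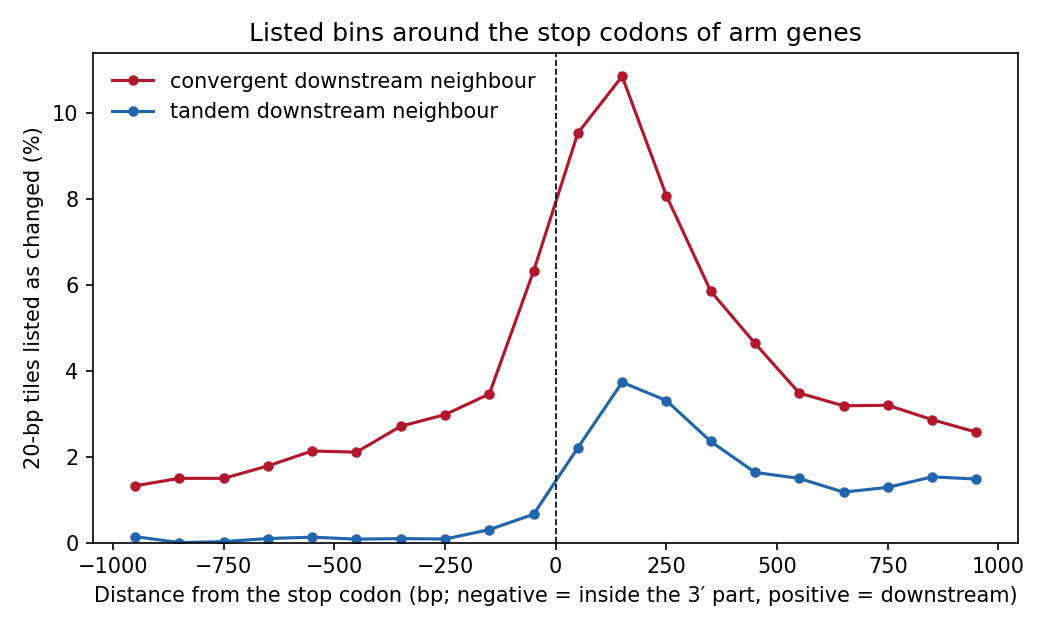
Share of 20-bp tiles listed by the authors (%) in classes of 100 bp from the stop codon or gene end, with negative distances inside the 3′ part and positive ones downstream, for arm genes with a convergent (red) and a tandem (blue) downstream neighbour. Both lines are highest at 100 to 200 bp downstream, at 10.9% and 3.73%, and only the convergent line stays above 1% through the last 1000 bp of the gene. Genes of a convergent pair enter once from each side.

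Most genes with a listed bin in the 3′ part also had one beyond the gene end. The gap to the next gene held a listed bin for 311 of 415 genes (74.9%), 75.3% of those with a convergent and 71.0% of those with a tandem neighbour. Among genes with a gap of 20 bp or more but no listed bin in the 3′ part, 638 of 4254 (15.0%) had a listed bin in the gap. That share was not split by neighbour. A convergent neighbour follows 384 of the 415 genes but only 2434 of all 4723 genes with 3′ tiles, so the contrast also holds the neighbour's direction. The own 5′ part, where it could be scored, held one in 65 of 414 genes with a listed bin in the 3′ part (15.7%) and in 41 of 4270 genes without (0.960%). For 78 genes, with 347 bins, the gap, the neighbour and the own 5′ part held none. Among listed bins that touch, 736 groups held a bin of a 3′ part, and 548 of these (74.5%) lay wholly in 3′ parts, with a median length of 40 bp and a longest one of 560 bp. With bins joined when their starts lay up to 500 bp apart, 117 of 358 groups (32.7%) lay wholly in 3′ parts. The 188 touching mixed groups had a median length of 140 bp, 153 held convergent intergenic bins, and in 71 of them the highest value lay in the 3′ part.

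The 3′ part of a gene held a listed bin more often when the 3′ part facing it did. Of 1179 convergent pairs in which both 3′ parts could be scored, 86 (7.29%) held listed bins in both, 209 (17.7%) in 1 and 884 in neither. Counted by gene, 172 of 381 genes that face a 3′ part with a listed bin held one themselves (45.1%), against 209 of 1977 that face one without (10.6%). The pair with the most bins was HEH2 and TOM1 on IV, with 33 bins in HEH2, 10 in TOM1 and 23 in the 458 bp between them. PDE2 and VTS1 on XV followed with 16, 4 and 22 bins, and STO1 and DLT1 on XIII had 15, 13 and 10. The length of the gap was related to the share of genes marked: 9.83% of genes with a convergent neighbour under 100 bp away held a listed bin, 18.2% at 200 to 300 bp, 17.2% at 500 to 1000 bp, and 1 of 41 at 1000 bp or more.

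Long genes were listed more often than short ones. The median length was 1839 bp for the 415 genes and 1215 bp for all 4723 genes with 3′ tiles. Of 667 genes under 500 bp, 3.15% held a listed bin in the 3′ part, and of 417 genes of 3000 bp or more, 19.4% did. A longer gene offers more tiles: per tile the listed share was 1.34% under 500 bp, 1.09% at 500 to 1000 bp, 1.75% at 2000 to 3000 bp and 1.51% at 3000 bp or more.

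Bins were spread unevenly over the genes. The median was 4 bins per gene, 78 genes held 1, and the 76 genes with 10 or more held 1225 bins, 49.8% of all. The 23 genes named below come from the 10 with the most bins, the 10 with the highest value and the 10 with the smallest adjusted p. Of these 23, 22 have a convergent neighbour, and the exception is SUT053, a non-coding transcript upstream of MRH1. Among all 415 genes with a listed bin, 384 have one, so the named genes are not particular in this.

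PEP3, for the Vps18 subunit of the HOPS and CORVET complexes that tether membranes, came first on all 3 measures. It lies on XII (434641 to 437397, plus strand), faces GID11 across 233 bp, and held 50 bins in 7 touching groups, which cover 72.5% of its 3′ part. In the authors' deposited table its highest bin had a log2 fold change of 1.01 (436421 to 436440; SE 0.21, adjusted p 0.000119), a ratio of 2.01, and lay 966.5 bp from the stop codon. Its bins within 250 bp of the stop codon had a median of 0.60, those from 286.5 to 306.5 bp one of 0.40, and those from 626.5 to 986.5 bp one of 0.66. The highest values thus lay far inside the gene, and 3 listed bins followed in the gap. Over these stretches of the gene the median SE was 0.16, 0.13 and 0.17 in turn, and its part in the values was not tested.

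SSM4, for the Doa10 ubiquitin ligase of the endoplasmic reticulum, was next with 44 bins on IX (296050 to 300009, minus strand). It had the longest touching group of all, 560 bp from 140.5 to 680.5 bp before the stop codon, with values of 0.38 to 0.57 in the authors' deposited table. Single bins reached 1620.5 bp from the stop codon, the farthest of all members. PDR16, for a phosphatidylinositol transfer protein, on XIV (215987 to 217042, minus strand) had 24 bins in a single group of 480 bp that took up 88.9% of its 3′ part. Its bin with the smallest adjusted p had 0.70 in the authors' deposited table (SE 0.15, adjusted p 0.000303). PTP3, for a phosphotyrosine phosphatase of the MAP kinase pathways, on V held 28 bins, with the highest at 0.70 in the authors' deposited table (adjusted p 0.00246) at 557.5 bp. Its 21 bins from 237.5 to 637.5 bp formed a group of 420 bp, the third in length.

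Of the other genes with many bins, HEH2, for an inner nuclear membrane protein, on IV held 33 in 8 groups that ran from 15.5 to 915.5 bp before the stop codon. Its groups had medians of 0.50 to 0.64, and the group farthest from the stop codon had the highest. The median SE was 0.15 in the nearest group and 0.20 in the farthest, and its part in this was not tested. The smallest adjusted p of HEH2, 0.00221, was in the bin at 15.5 bp. UBP7, for a ubiquitin protease, on IX held 28, the highest at 0.65 in the authors' deposited table (SE 0.15, adjusted p 0.000568) at 315.5 bp. TRS120, for a subunit of the TRAPPII complex of Golgi transport, on IV held 24, none of them within 181.5 bp of the stop codon. VPS52, for a subunit of the GARP complex that returns vesicles to the Golgi, on IV also held 24, and 7 more bins lay in its 5′ part. HSL1, for a kinase of the morphogenesis checkpoint, on XI held 23 over 1025.5 bp, in 6 groups with gaps between them.

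**Figure D5:**
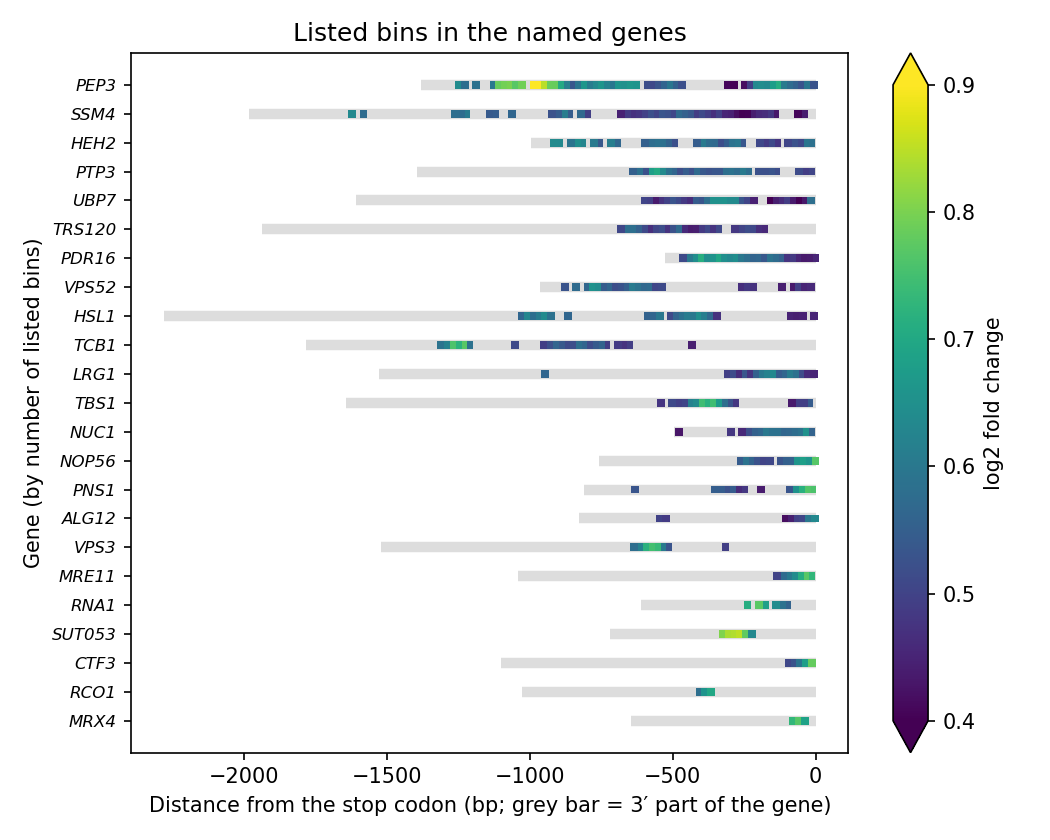
Listed bins (coloured squares) in the 3′ parts (grey bars) of the 23 named genes, by distance from the stop codon or gene end in bp, with the colour giving the log2 fold change in the authors' table. The genes are ordered by their number of bins, from 50 in PEP3 to 3 in MRX4 and RCO1, and the highest value, 1.01, lies 966.5 bp from the stop codon of PEP3.

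Several of the genes with high values carried them right at the gene end. CTF3, for a subunit of the Ctf19 complex itself, on XII (879723 to 881924) held 5 bins from 13.5 to 93.5 bp before its stop codon, with the highest at 0.78 in the authors' deposited table (SE 0.18, adjusted p 0.000893). MRE11, for the nuclease that starts the processing of meiotic double-strand breaks, on XIII (718575 to 720653) held 7 in one group of 140 bp, the highest at 0.77 in the authors' deposited table (SE 0.17, adjusted p 0.00031) and 35.5 bp from the stop codon. A further 7 bins lay in the gap to UBP8. NOP56, for a core protein of box C/D snoRNPs, had 0.77 in the authors' deposited table (adjusted p 0.00166) in the bin on its stop codon. MRX4 had 0.77 and PNS1 0.76 in the authors' deposited table, 58.5 and 31.5 bp from the stop codon. ALG12, for a mannosyltransferase of N-glycan assembly, had 0.63 in the authors' deposited table (adjusted p 0.000769) at 3.5 bp, and NUC1, for the main mitochondrial nuclease, 0.65 (adjusted p 0.00085) at 36.5 bp.

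Others had the high value farther in. SUT053 on IV (506334 to 507774) held 6 bins in 120 bp with 0.85 at the highest in the authors' deposited table (SE 0.22, adjusted p 0.00412), 263.5 bp from its end. RNA1, for the GTPase-activating protein of Ran, had 0.77 in the authors' deposited table at 198.5 bp. TCB1, for a tricalbin that ties the endoplasmic reticulum to the plasma membrane, held 23 bins from 431.5 to 1311.5 bp and none nearer, with 0.77 at 1231.5 bp in the authors' deposited table. VPS3, for a CORVET subunit, had 0.75 at 575.5 bp in the authors' deposited table, TBS1, for a zinc cluster protein, 0.75 at 361.5 bp, and RCO1, for a subunit of the Rpd3S histone deacetylase, 0.70 at 365.5 bp. SUT053, RNA1, TCB1, VPS3 and TBS1 had no listed bin in the gap. Neither did MRX4, whose highest bin lay 58.5 bp from the stop codon, whereas PTP3, with its highest at 557.5 bp, had 10. The end of RCO1 overlaps YMR075C-A, so it has no gap to score, and only 34 tiles of its 3′ part could be scored. None of these tiles lay nearer to the gene end than its highest bin, so the rule sets that distance. LRG1, for a GTPase-activating protein of Rho1, held 17 bins and faced ADY3, which held 8, with 0.63 in the authors' deposited table (adjusted p 0.000941).

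Genes of cohesin and of the Ctf19 complex held listed bins in the 3′ part at about the share of all genes. Over all 4723 genes with 3′ tiles, 8.79% held a listed bin in the 3′ part. Of 11 genes for cohesin, its loader and its regulators, 1 (9.09%) did, ESP1, for separase, with a single bin at 0.43 in the authors' deposited table (SE 0.15, adjusted p 0.0462). Of 13 genes of the Ctf19 complex and inner kinetochore, 1 (7.69%) did, CTF3. None of 24 genes of the meiotic axis and early recombination held one, and none of 4 histone, 10 acetate and gluconeogenesis and 19 chaperone genes.

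Of 11 glycolytic genes, 2 (18.2%) held bins in the 3′ part. HXK2, for hexokinase, had 5, with 0.59 in the authors' deposited table (adjusted p 0.0102), and FBA1, for aldolase, had 3, with 0.45 (adjusted p 0.0282). Of 123 ribosomal protein genes, 7 (5.69%) held 19 bins in all. The smallest adjusted p were in RPL17A (0.74, adjusted p 0.00618), RPS6A (0.60, adjusted p 0.00709) and RPS16B (0.56, adjusted p 0.0164) in the authors' deposited table. PDR5, a drug exporter, was the 1 gene of 31 for plasma membrane transporters, with a single bin at 0.61 in the authors' deposited table. Of the 12 genes found by these lists, 10 have a convergent neighbour, and PDR5 and RPS24A a tandem one. Among all 415 genes with a listed bin, 384 have a convergent neighbour. For genes with no listed bin, a lack of change and a lack of a test cannot be told apart.

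Position along the arm was not related to the listed share in one direction. By distance from the centromere it was 1.47% at 50 to 100 kb, 1.24% at 100 to 150 kb, 1.82% at 150 to 200 kb, 1.06% at 400 to 600 kb and 1.71% beyond 600 kb. The median log2 fold change stayed between 0.52 and 0.53 in all classes of distance. Toward the chromosome ends the share was 1.86% at 20 to 50 kb and 1.31% at 200 kb or more. Chromosome IV held 434 bins, 335 of them on its right arm, XV held 264 and XIV 90. The left arm of VIII had the highest share, 5.06%, from 35 bins in 4 genes, and the short right arm of IX had 0 of 267 tiles. Across the 13 chromosomes the share and the chromosome length gave a Pearson's r of -0.37 and a Spearman's rho of -0.45, a description over chromosomes that share the same libraries.

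Listed bins lay on both sides of each limit of position in the rule. All of them passed the same call, so like values on both sides do not show whether a limit separates anything. Just past the middle of a gene, a bin in DIE2 on VII had 0.51 in the authors' deposited table (adjusted p 0.0491), and just before it one in EFG1 on VII had 0.50. The member nearest to a centromere, in MYO1 on VIII, had 0.57 in the authors' deposited table at 50370.5 bp, and the nearest 3′ bin left out, in ARP2 on IV, had 0.50 at 49349.5 bp. At the chromosome ends EFM1 (0.53) was inside and RSC9 (0.55) outside, and beside tRNA genes YOL107W (0.46) was inside and GSH1 (0.49) outside, in the authors' deposited table. The member with the largest adjusted p, just under the authors' threshold, was in BUD8 on XII, with 0.45 in the authors' deposited table.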

How the data were processed

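The data are 1 table deposited by the authors, their comparison of 3 WT and 3 ctf19-9A cultures in bins of 20 bp. Per the submitters' processing notes, Bowtie2 2.5.0, DESeq2 (no version), deepTools 3.4.3 and FastQC 0.11.9 were used, with builds R64 and sacCer3. Not given in the sources used here are their roles, settings and filters and which bins were tested. Per the file headers, the authors deposited for each bin a log2 fold change, plain and shrunken, its p-value and its false discovery rate (here adjusted p).

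Tests on counts had been planned for tables holding them, and the authors' call was used here in their place. SEs were computed as the size of the log2 fold change over the normal deviate of the p-value (scipy 1.17.1, pandas 2.3.3). Genes were those of the RefSeq table of R64, with the strand read from the systematic name, and a chromosome end was the last gene or bin. The downstream neighbour was the next gene reaching past the gene end. Class assignment was checked on 2600 random tiles against a direct search, with 0 differences. Genes were named by bin number, highest value, smallest adjusted p, gene list and the limits of the rule. A gene that the rule picks is not reported here. The bins, lists and rules were chosen with earlier results of these data known. LAM1, RKR1, HRR25 and NPR1, the convergent pairs and the genes of the XV stretch were picked after their values were seen. No genome sequence was used here.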

Additional observations from a re-analysis of the deposited data

How the results depend on the processing

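No paired analysis was possible because the deposited values are of the comparison and not of single cultures, and leaving out a replicate could not be run for the same reason. Of 44 values recomputed under alternatives, 37 stayed within 1.5 times the count or within 1 SD over chromosomes. These limits are wide for some values. For the ratio of the listed share in 3′ to that in 5′ parts the SD was 3.85, so 3.81 counted as within it of 6.74. Some alternatives kept nearly all bins, such as 2439 of 2462, and could move little. With adjusted p under 0.01, 294 bins were left, with a median log2 fold change of 0.60, since the stricter call drops the smaller changes. Counting groups of touching bins within 3′ parts alone gave 746 and counting genes gave 415. Per gene the median distance from the gene end was 131.5 bp. The shrunken log2 fold change had a median of 0.40. Of the 736 touching groups of listed bins of any class that held a 3′ bin, 25.5% also held a bin of another class. With bins joined when their starts lay up to 500 bp apart, 67.3% of 358 groups did. The ratio of the listed share in 3′ to that in 5′ parts ran from 3.81 per gene to 8.32 with adjusted p under 0.01, and the share of bins with a convergent neighbour from 91.2% with adjusted p under 0.01 to 96.8% with protein-coding genes only. Without chromosome IV, 2028 bins were left, with a median of 0.53 and 93.5% with a convergent neighbour. Depth per culture is unknown, so neither an unlisted tile nor a listed share can be corrected for the reads behind it.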

Other observations

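The stretch of the right arm of XV that the rule leaves out holds 3′ parts with the opposite sign. Of its 118 bins, all negative, 61 lay in the 3′ parts of 5 genes. ARP8, for an actin-related subunit of the INO80 chromatin remodeller, held 19 of them, with a median log2 fold change of -0.61, and SFL1, a transcription factor gene that faces it, held 16, with a median of -0.77. The lowest of these bins in SFL1 had -0.88 in the authors' deposited table. IDH2, for a subunit of isocitrate dehydrogenase, held 13 with a median of -0.68, RUP1 held 9 with -0.66 and BAG7 held 4 with -0.57. ARP8, SFL1 and IDH2 have a convergent neighbour, and RUP1 and BAG7 a tandem one. These bins lay from 1.5 to 488.5 bp before the gene end, and those of IDH2 from 148.5 bp on. The listed share by distance was not computed for this stretch, so it is not compared with the positive 3′ parts.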
